A study of Mus musculus with 8 samples.

Results

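Zfp genes are mouse genes named for a zinc finger protein. The genes described here are all those whose symbol is Zfp followed by a digit and that the authors listed as nearest to a Klf6 ChIP-seq peak, at any listed distance from -50 kb to +5 kb of the transcription start site (TSS). There were 70 such genes among the 3888 genes with a listed peak, with 144 of the 7855 gene-annotated peaks. The rule used only symbols and distances, and not the height or the sequence of a peak.

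Klf6 chromatin occupancy was compared between primary mouse oligodendrocyte progenitors (OLP) and the immature oligodendrocytes (iOL) derived from them. Both groups came from C57BL/6 mice, purified by immunopanning from cortex of animals at postnatal days 6 to 7, and were plated with PDGF-AA at 10 ng/ml and bFGF at 20 ng/ml. The iOL were treated with the thyroid hormone T3 at 40 ng/ml for 18 h. The methods of the study describe a move to a differentiation medium that contains T3, so the effect of the hormone and of the medium cannot be told apart. Each group had 2 biological replicates, A and B, immunoprecipitated with a rabbit polyclonal antibody to Klf6. No sample lacking Klf6 is among those described, so the antibody has no control of that kind here. The 4 matching input samples served as the background of the peak calls and have no values of their own here. A peak list holds no expression values, so cell identity could not be checked against marker genes.

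Most Zfp proteins carry arrays of C2H2 zinc fingers, short loops held by a zinc ion that read DNA. Many belong to the KRAB class, which silences chromatin, often at retrotransposons. KRAB zinc finger genes lie in clusters that arose by repeated duplication. Klf6 is itself a C2H2 protein, an activator of the Krüppel-like family that binds GC-rich boxes and CACCC boxes.

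Peaks near 6 genes (Zfp330, Zfp758, Zfp184, Zfp114, Zfp781 and Zfp534) lay at the same place in all 4 samples. Their sequences are shown first, with those of relatives, because they carry the main pattern among these peaks. All come from the mouse genome build mm9, plus strand. Near copies are genomic matches of at least 80% identity over at least 80% of the highest-scoring peak of a locus, where a locus joins peaks of a gene at most 500 bp apart.

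The Zfp330 peak (chr8:85331341-85331488, OLP A), the Zfp352 peak (chr4:89880973-89881116, OLP A) and the Zfp772 peak (chr7:7170753-7170837, OLP A) lay in intergenic sequence on 3 chromosomes. Capitals mark the part that Zfp330 and Zfp352 share at 98.1% identity over 104 bases, and the part of Zfp772 that matches Zfp330 on the opposite strand at 96.5% identity over 85 bases.
Zfp330: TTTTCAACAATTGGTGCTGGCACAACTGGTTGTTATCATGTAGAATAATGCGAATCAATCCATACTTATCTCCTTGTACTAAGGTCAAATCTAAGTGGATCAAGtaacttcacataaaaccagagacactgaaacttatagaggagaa
Zfp352: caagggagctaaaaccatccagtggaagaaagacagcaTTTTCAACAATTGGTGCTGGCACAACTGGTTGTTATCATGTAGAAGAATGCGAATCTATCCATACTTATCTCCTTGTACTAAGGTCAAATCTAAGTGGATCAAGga
Zfp772: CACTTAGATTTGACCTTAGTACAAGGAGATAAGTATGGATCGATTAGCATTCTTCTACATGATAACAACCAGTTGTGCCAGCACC

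The Zfp114 peak (chr7:24953075-24953221, OLP A) and the Zfp606 peak (chr7:13059677-13059764, iOL A) shared 57 bases at 98.2% identity, in capitals. The Zfp946 peak (chr17:22534930-22535074, OLP B) shared 47 bases with the other end of the Zfp114 peak, at 100% identity. All 3 loci were intergenic.
Zfp114: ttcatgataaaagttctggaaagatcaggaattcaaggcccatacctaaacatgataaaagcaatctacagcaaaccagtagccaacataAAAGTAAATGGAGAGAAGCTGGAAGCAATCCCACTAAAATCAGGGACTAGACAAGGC
Zfp606: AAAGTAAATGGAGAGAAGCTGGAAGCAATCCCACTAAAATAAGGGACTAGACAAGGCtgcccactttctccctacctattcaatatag
Zfp946: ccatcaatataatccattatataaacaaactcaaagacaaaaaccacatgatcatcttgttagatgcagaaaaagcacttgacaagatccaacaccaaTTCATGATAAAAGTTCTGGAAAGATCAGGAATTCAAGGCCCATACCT

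The Zfp534 peak (chr4:147100914-147101122, iOL A) matched a second Zfp758 peak (chr17:22461310-22461447, OLP B) on the opposite strand over 120 bases at 98.3% identity, in capitals. The peak of Zfp758 that was present in all 4 samples (chr17:22459194-22459364, OLP A) holds 1 match to the Klf core letters CCACCC, in capitals. The peak as called in iOL A also held a match, but those called in OLP B and iOL B did not. The Zfp781 peak (chr10:81406696-81406790, iOL B) and the Zfp735 peak (chr11:73464774-73464867, OLP B) are shown because these loci were in the set of replicated peaks with the highest folds of a stage. The peaks printed for Zfp781 and Zfp735 are those of highest score at each locus. The folds that placed them in the set were in OLP A for Zfp781 and in iOL A for Zfp735. All 5 were intergenic.
Zfp534: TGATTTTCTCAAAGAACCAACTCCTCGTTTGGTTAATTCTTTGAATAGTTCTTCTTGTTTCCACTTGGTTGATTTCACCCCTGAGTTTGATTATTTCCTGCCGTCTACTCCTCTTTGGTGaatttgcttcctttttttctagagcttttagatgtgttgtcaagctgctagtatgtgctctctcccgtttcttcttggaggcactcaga
Zfp758 second peak: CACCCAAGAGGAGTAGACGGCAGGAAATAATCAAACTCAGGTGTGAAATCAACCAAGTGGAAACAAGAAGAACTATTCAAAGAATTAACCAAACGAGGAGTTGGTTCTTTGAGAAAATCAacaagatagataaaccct
Zfp758: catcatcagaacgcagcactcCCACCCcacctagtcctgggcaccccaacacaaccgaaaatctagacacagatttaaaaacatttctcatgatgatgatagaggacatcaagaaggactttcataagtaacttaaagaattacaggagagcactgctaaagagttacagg
Zfp781: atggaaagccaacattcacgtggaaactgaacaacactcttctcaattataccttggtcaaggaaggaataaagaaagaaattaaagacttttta
Zfp735: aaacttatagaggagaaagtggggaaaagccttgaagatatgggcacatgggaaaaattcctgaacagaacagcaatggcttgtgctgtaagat

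The Zfp184 peak (chr13:22022977-22023117, OLP A) was the one place called in all 4 samples with a single near copy of the whole peak in the genome, its own, although some of its 32-base stretches recurred in up to 9 places. Read on the opposite strand, it holds the sequence of an initiator methionine tRNA gene. Capitals mark its match to the B box, the internal promoter element that RNA polymerase III genes of this kind carry.
Zfp184: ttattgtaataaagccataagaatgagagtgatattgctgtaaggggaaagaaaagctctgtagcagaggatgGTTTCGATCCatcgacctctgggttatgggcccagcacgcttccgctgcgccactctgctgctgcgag

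The Zfp3 peak (chr11:70561147-70561235, OLP A, intergenic) and the Zfp74 peak (chr7:30732967-30733070, OLP A, intron of Zfp74) matched on opposite strands over 67 bases at 94% identity, in capitals. From background knowledge of the sequence, with no repeat annotation used, they resemble the B2 family of short interspersed elements. The Zfp574 peak (chr7:25860365-25860428, OLP A, intergenic) and the Zfp385b peak (chr2:77586811-77586913, iOL B, intron of Zfp385b) matched on opposite strands over 59 bases at 93.2% identity, also in capitals, and by the same knowledge resemble the B1 family. The Zfp704 peak (chr3:9607510-9607656, OLP B, intron of Zfp704) is shown as a single-copy sequence near a gene of the neural list described later.
Zfp3: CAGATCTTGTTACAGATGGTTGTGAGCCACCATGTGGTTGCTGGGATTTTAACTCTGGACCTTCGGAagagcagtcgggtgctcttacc
Zfp74: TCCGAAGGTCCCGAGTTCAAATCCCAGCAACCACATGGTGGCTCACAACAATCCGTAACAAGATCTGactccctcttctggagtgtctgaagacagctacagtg
Zfp574: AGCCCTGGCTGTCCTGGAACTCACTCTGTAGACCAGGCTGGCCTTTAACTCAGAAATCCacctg
Zfp385b: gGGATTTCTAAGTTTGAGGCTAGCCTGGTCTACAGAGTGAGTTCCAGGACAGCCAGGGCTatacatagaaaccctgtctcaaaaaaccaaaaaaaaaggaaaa
Zfp704: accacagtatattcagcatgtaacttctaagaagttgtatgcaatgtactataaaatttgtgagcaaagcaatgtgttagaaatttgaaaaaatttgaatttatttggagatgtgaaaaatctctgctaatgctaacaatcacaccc

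The first question was how many Zfp genes had a peak at each stage. A Zfp gene had a listed peak in 36 cases in OLP A, 27 in OLP B, 28 in iOL A and 23 in iOL B. OLP averaged 31.5 ± 6.36 genes (SD, n = 2) and iOL 25.5 ± 3.54 (SD, n = 2). OLP B lay below iOL A, so the groups overlapped, and the difference of 6 genes had an exact two-sided permutation p = 0.667, where 0.333 is the smallest p that 2 against 2 samples can give. With peaks scored by MACS at 50 or more, the difference turned to -4 genes, and within -15 to +5 kb of the TSS it was 8. The lengths of the lists differed, with 12451 and 7827 peaks of any kind in OLP A and B and 10225 and 5777 in iOL A and B. As a share of gene-annotated peaks, Zfp peaks made up 1.79% (49 of 2744, 95% Wilson interval 1.35 to 2.35) in OLP A and 1.94% (32 of 1647, 1.38 to 2.73) in OLP B. The share was 1.71% (38 of 2222, 1.25 to 2.34) in iOL A and 2.01% (25 of 1242, 1.37 to 2.95) in iOL B. The 4 intervals overlapped, and the mean share was 1.86% at both stages (exact permutation p = 1). Intervals on shares cover counting error only.

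**Figure D1:**
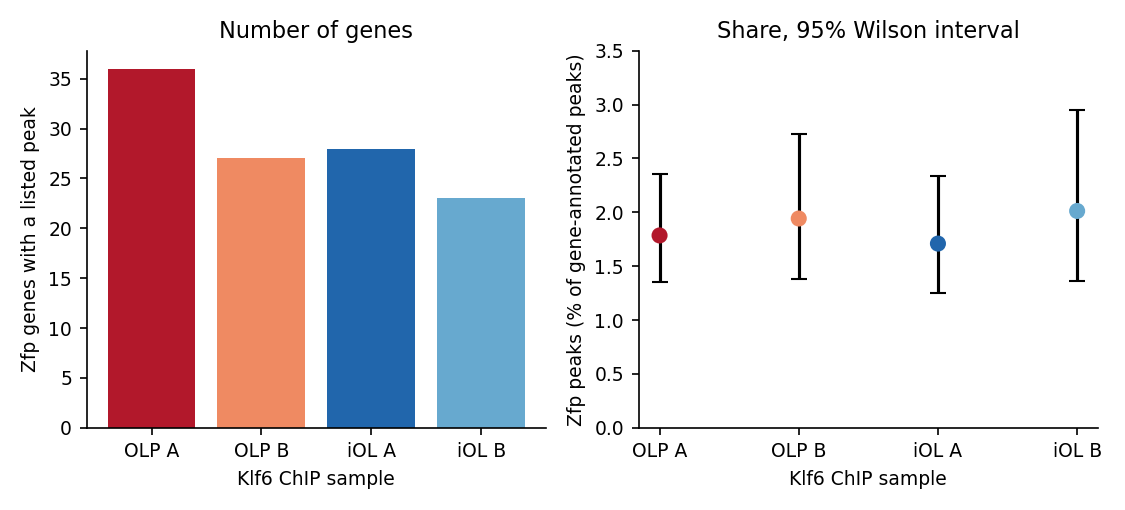
Left, bars give the number of Zfp genes nearest to a listed Klf6 peak in each of the 4 ChIP samples, lowest in iOL B (23) and highest in OLP A (36). Right, points give Zfp peaks as a percentage of all gene-annotated peaks with 95% Wilson intervals, and all 4 intervals overlap.

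Of the 367 protein-coding Zfp genes in the GENCODE annotation of this genome, 69 (18.8%) had a listed peak in at least 1 sample, against 15% of all protein-coding genes. One further gene with a peak, Zfp433, has no entry of that name there. The genes with a peak encoded a median of 12 C2H2 fingers (range 0 to 29, n = 69), and the 298 Zfp genes with none listed a median of 9 (range 0 to 33). An array of 5 fingers or more was found in 79.7% and 77.2% of them. Finger counts came from the longest coding transcript and a pattern search, so they are approximate.

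Chromosome 17 held 14 of the genes with a peak among 45 annotated Zfp genes, and chromosome 7 held 12 among 87. Chromosome 10 held 4 members beside 5 annotated genes, but Zfp433, which is not among those annotated, is one of the 4. Chromosomes 1, 12, 14 and 19 held none, with 5, 6, 5 and 3 annotated. Over all chromosomes, 69 of the 367 annotated Zfp genes (18.8%) had a peak. The share of all protein-coding genes with a peak was not counted by chromosome. No pattern by chromosome can therefore be read from these counts. The assignment to a gene was also ambiguous, since 23 of the 144 peaks had a second Zfp gene within the listed range. A further 47 peaks had a Zfp gene in range but a nearer gene of another kind, and 34 Zfp genes were reached only in this way. How often peaks of other gene families had a second gene in range was not counted.

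Most genes were seen once. A peak appeared in 1 sample for 45 of the 70 genes (64.3%), in 2 samples for 12, in 3 for 7 and in all 4 for 6. Across all 3888 genes with a peak, 63.9% were also seen in 1 sample and 9% in all 4. By stage, 31 Zfp genes had peaks in OLP alone, 17 in iOL alone and 22 in both, which is 44.3%, 24.3% and 31.4%, beside 41.6%, 27.2% and 31.1% of all genes. A peak that is missing from a list was not called there, and most calls rested on few tags. The median Zfp peak held 8 tags in OLP A, 12 in OLP B, 8 in iOL A and 13 in iOL B, the same medians as the other gene-annotated peaks. In OLP A, 22 of the 49 Zfp peaks held 7 tags, the fewest of any peak in that sample. The listed false discovery rate reached 5% in 2 Zfp peaks, both in iOL B.

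**Figure D2:**
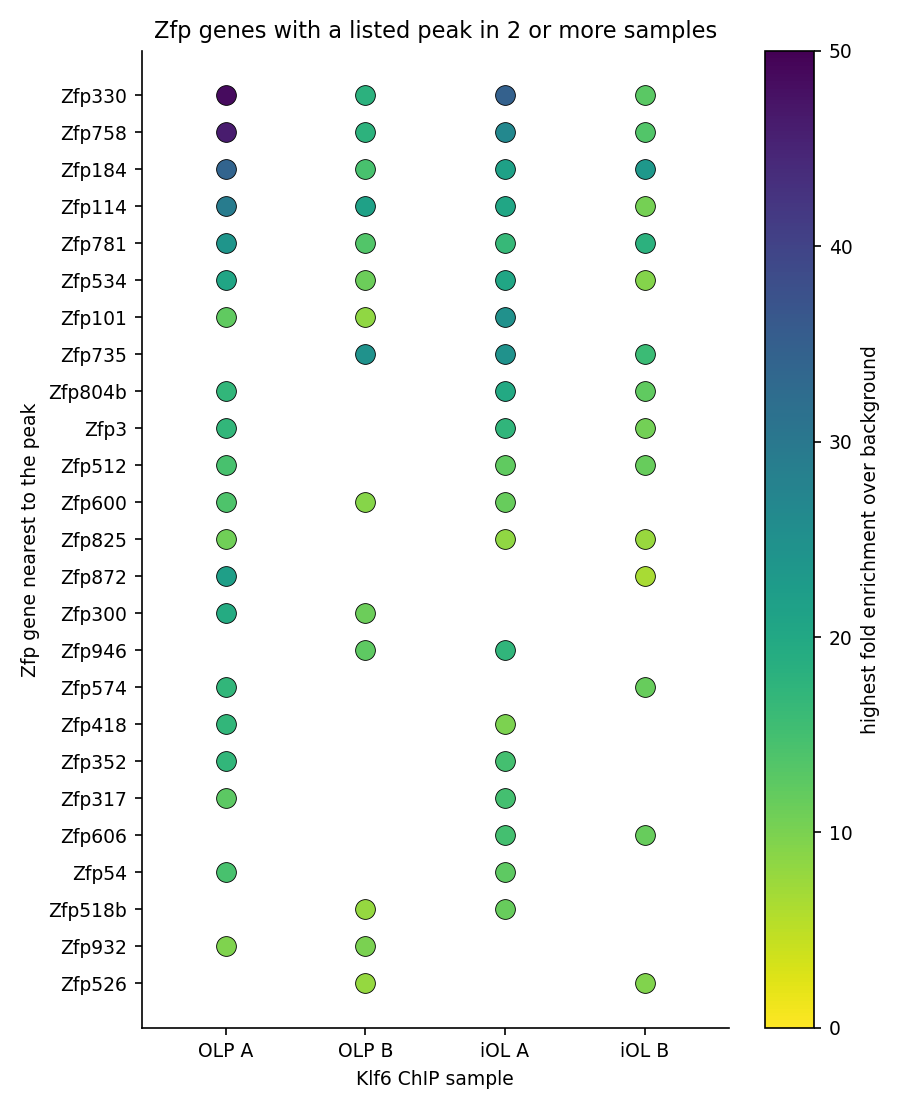
Each row is one of the 25 Zfp genes with a listed peak in 2 or more samples, and each column a ChIP sample. A point marks a listed peak and its colour the highest fold enrichment over background in that sample, and a gap means that no peak was listed. The top 6 rows, from Zfp330 to Zfp534, are filled in all 4 samples.

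Peaks of the same gene that lay within 500 bp of each other in both OLP replicates were found for 7 of the 53 Zfp genes with an OLP peak (13.2%), against 17.6% of all genes with an OLP peak. In iOL this was so for 12 of 39 Zfp genes (30.8%), against 22.6%. A peak at the same place in all 4 samples was found for 6 of 70 Zfp genes (8.57%), against 7.02% of all genes with a peak. The order of Zfp and all genes thus differed between stages, by counts of a few genes. Within -15 to +5 kb of the TSS each stage had 4 replicated Zfp genes and 3 were at one place in all 4 samples, and with at least 10 tags iOL had 7. The 7 OLP genes were the 6 genes of all 4 samples and Zfp101. The 12 iOL genes were the same 6 with Zfp3, Zfp512, Zfp606, Zfp735, Zfp804b and Zfp825. Loci were also shared across stages. Of the 96 Zfp loci, 7 were listed in both OLP A and OLP B and 12 in both iOL A and iOL B. OLP A shared 15 with iOL A and 13 with iOL B. OLP B shared 9 with iOL A and 8 with iOL B. Over all 5480 gene-annotated loci the counts within stages were 542 and 549. Those across stages were 770, 581, 491 and 432, in the same order.

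Among the 6 genes, the Zfp330 peak reached the highest enrichment of any Zfp peak. ZFP330 is a nucleolar protein, and the pattern search found 0 C2H2 fingers in it. The peak held 23 tags at a fold enrichment of 48.62 in OLP A and 20 tags at 18.01 in OLP B. It held 20 tags at 34.73 in iOL A and 21 tags at 12.83 in iOL B. The tags were alike in all 4 samples, while the fold was higher in replicate A of each stage. The summit lay 33416 to 33420 bp upstream of the TSS in every sample. OLP B listed a second, lower peak in the same locus, with 10 tags at a fold of 9.01.

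The Zfp758 peak held 20 tags at a fold of 46.19 in OLP A, 18 at 17.82 in OLP B, 16 at 26.59 in iOL A and 26 at 13.53 in iOL B. It lay 39093 to 39100 bp upstream of a gene for a protein with 12 fingers. Replicate A again had the higher fold at both stages.

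The Zfp184 peak differed in this respect. It held 16 tags at a fold of 34.03 in OLP A, 14 at 14.64 in OLP B, 12 at 21.36 in iOL A and 25 at 23.25 in iOL B, so iOL B lay above iOL A. It was centred 13890 to 13893 bp upstream of the TSS of Zfp184, which encodes a protein with 18 fingers. RefSeq (GRCm38.p6) lists a run of 13 tRNA genes before Zfp184, the sixth of which is a methionine tRNA gene. The B box consensus, searched on both strands after the sequence had been seen, occurred in 4 of the 144 Zfp peaks (2.78%), all at this locus, and in 1.3% of the 7711 other gene-annotated peaks.

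The Zfp114 peak held 14 tags at a fold of 29.17 in OLP A, 22 at 21.39 in OLP B, 17 at 20.48 in iOL A and 22 at 10.46 in iOL B. It lay 6891 to 6894 bp upstream, the nearest to a TSS of the 6. A second Zfp114 locus, 4658 to 4660 bp upstream, was listed in OLP A (11 tags, fold 21.88) and iOL A (7 tags, fold 17.37). Both loci were in repeated sequence, with 32533 and 78074 near copies.

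The Zfp781 peak held 15 tags at a fold of 23.99 in OLP A, 15 at 13.52 in OLP B, 7 at 12.41 in iOL A and 17 at 17.97 in iOL B. It lay 13517 to 13530 bp upstream by the listed annotation, whereas the nearest Zfp781 start in GENCODE was 33099 bp away.

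Zfp534 had the most loci of any Zfp gene, with 6 loci and 12 peaks. One of its loci, 23946 to 24367 bp upstream, held 7 peaks and was present in all 4 samples, with the lowest fold in iOL B (7.89) and the highest in OLP A (20.61). The other 5 were each listed in a single sample. Among them was a peak in OLP B with 82 tags at a fold of 4.21, spread over 804 bp. High tags with low fold also marked the Zfp825 locus, where peaks held 48 to 177 tags in OLP A, 40 and 48 in iOL A and 236 in iOL B, at folds between 4.4 and 10.91. The single Zfp746 peak in OLP A held 56 tags at a fold of 4.17.

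At the places of Zfp330, Zfp758, Zfp114 and Zfp534 listed in all 4 samples, the highest fold was larger in replicate A than in replicate B of the same stage. The same held for gene-annotated peaks of other genes, whose median fold was 14.58 in OLP A and 9.01 in OLP B, and 14.89 in iOL A and 10.57 in iOL B. Fold enrichment is measured against each sample's own background, which limits comparison between replicates as well as between stages. Folds were not tested between stages, and the highest and lowest folds named here are listed values only.

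Other genes were seen in 3 samples at one place. The Zfp735 peak held 22 tags at a fold of 24.78 in OLP B, 12 at 24.65 in iOL A and 16 at 15.86 in iOL B, and was not listed in OLP A. Zfp3 was listed in OLP A (7 tags, fold 17.02), iOL A (8 tags, 17.37) and iOL B (10 tags, 10.57). Zfp804b was listed in the same 3 samples at folds of 17.02, 19.85 and 12.19, but its peak lay 47453 to 47462 bp upstream of the listed TSS and 515308 bp from the nearest Zfp804b start in GENCODE. Zfp101 was listed in OLP A, OLP B and iOL A, at folds of 12.15, 8.28 and 24.81.

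One gene had a replicated peak at one stage and no peak at the other. Zfp606 was listed in iOL A (7 tags, fold 14.85) and iOL B (11 tags, fold 11.63) and in neither OLP sample. Its peak lay 3932 to 3947 bp upstream, with 31462 near copies. No Zfp gene showed the opposite pattern, a replicated OLP peak with no iOL peak. Zfp300 and Zfp932 were listed in both OLP samples and in neither iOL sample, but at different places. These patterns were not counted over all genes with a peak. With 7 and 11 tags, whether the OLP samples could have detected the Zfp606 peak was not tested.

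Apart from Zfp534, 5 genes had 3 or more loci. How many of all genes with a peak had as many was not counted. Zfp600 had 5 loci in OLP A, OLP B and iOL A, none of them listed in more than 1 sample. The Zfp600 loci had 10 to 16 near copies. Zfp97 had 3 loci, all in iOL A, and Zfp317, Zfp418 and Zfp512 had 3 each.

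Few peaks lay near a promoter. The median Zfp peak was 16860 bp from its TSS, against 20113 bp for other gene-annotated peaks. Within 2 kb of the TSS lay 6 of the 144 Zfp peaks (4.17%) and 5.06% of the others. They belonged to Zfp574 in OLP A and iOL B, and in a single sample each to Zfp326, Zfp623, Zfp763 and Zfp827. Zfp574 was the one gene with such a peak in 2 samples, with 7 tags at a fold of 17.02 in OLP A, 1826 bp upstream, and 11 tags at 11.63 in iOL B, 1810 bp upstream. Its sequence had 147091 near copies, more than any other locus. The Zfp326 peak (OLP B, 10 tags, fold 5.63) and the Zfp827 peak (OLP B, 16 tags, fold 6.04) had 1 copy each. ZFP326 is part of a complex that links splicing to transcript elongation.

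**Figure D3:**
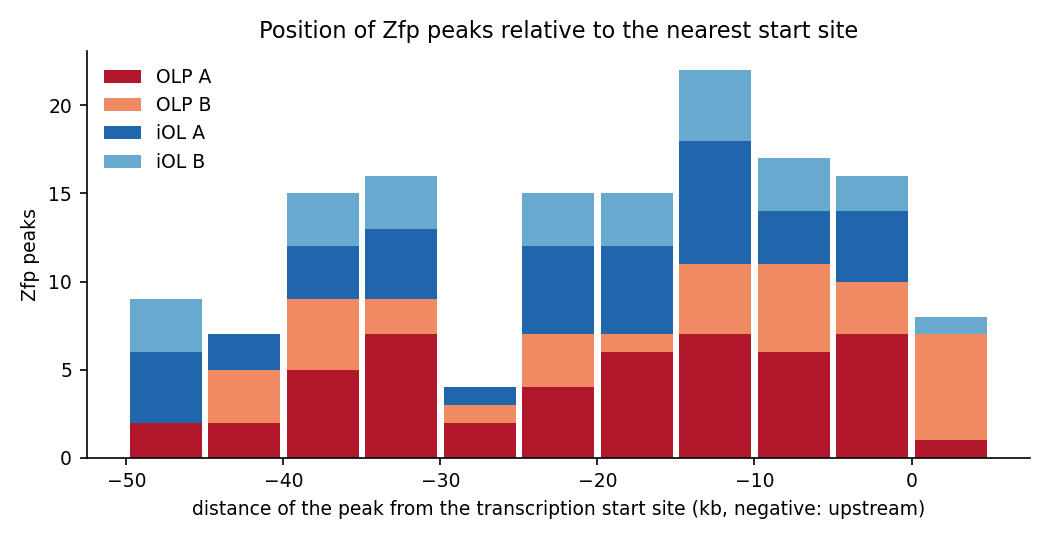
Bars give the number of Zfp peaks in bins of 5 kb by distance from the TSS of the nearest gene, stacked by ChIP sample, with negative values upstream. The bin from -15 to -10 kb held the most, 22 peaks, and the bin downstream of the TSS held 8.

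Zfp genes of fixed lists were looked for by name: neural genes, CCCH genes, Zfp385 genes, silencers of imprinted or retroviral DNA, and Zfp2. Of these 26 genes, 25 were annotated and 5 had a listed peak, beside 18.8% of annotated Zfp genes and 15% of all protein-coding genes. In the neural list of 11, which includes Zfp191, needed for myelination, and Zfp488, an oligodendrocyte regulator, only Zfp704 had one, in OLP B alone (11 tags, fold 6.66, 2527 bp downstream of the TSS). None of the 4 CCCH genes (Zfp36, Zfp36l1, Zfp36l2 and Zfp36l3), which promote mRNA decay, had a nearest peak. Of the 4 Zfp385 genes, Zfp385b was listed in iOL B (12 tags, fold 12.68) and Zfp385c in OLP A (7 tags, fold 12.15). Of 6 silencers, Zfp809, which represses retroviruses in embryonic cells, was listed in OLP A (7 tags, fold 8.87). Zfp932 was listed in OLP A (7 tags, fold 9.72) and OLP B (13 tags, fold 10.14) at different places, 4840 bp upstream and 4269 bp downstream. None of these 5 genes had a peak shared between replicates. Zfp365, Zfp36l3, Zfp57, the keeper of genomic imprints, and Zfp568 were within range of a peak that lay nearer to another gene. Zfp2 had no nearest peak.

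Repeated sequence was common at the Zfp loci. Of the 96 Zfp loci, 58 (60.4%) had at least 1000 near copies in the genome, 19 had from 10 to fewer than 1000, 8 had from 2 to fewer than 10 and 11 (11.5%) had 1. The 11 single-copy loci belonged to Zfp9, Zfp184, Zfp236, Zfp287, Zfp326, Zfp647, Zfp651, Zfp704, Zfp748, Zfp790 and Zfp827. The count of 1 is for the whole peak, and shorter parts recurred in 4 of them. Stretches of 32 bases with a second exact occurrence made up 36.7% of the Zfp287 peak, 34.7% of the Zfp184 peak in iOL B, 43.4% of the Zfp748 peak and 35.4% of the Zfp9 peak. Among the 22 loci listed in 2 or more samples, 19 had at least 1000 near copies and Zfp184 was the one with a single copy. Among the 74 loci listed in 1 sample, 39 had at least 1000 near copies and 10 had a single copy. Near copies were counted at Zfp loci only, so these counts have no comparison with other genes.

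**Figure D4:**
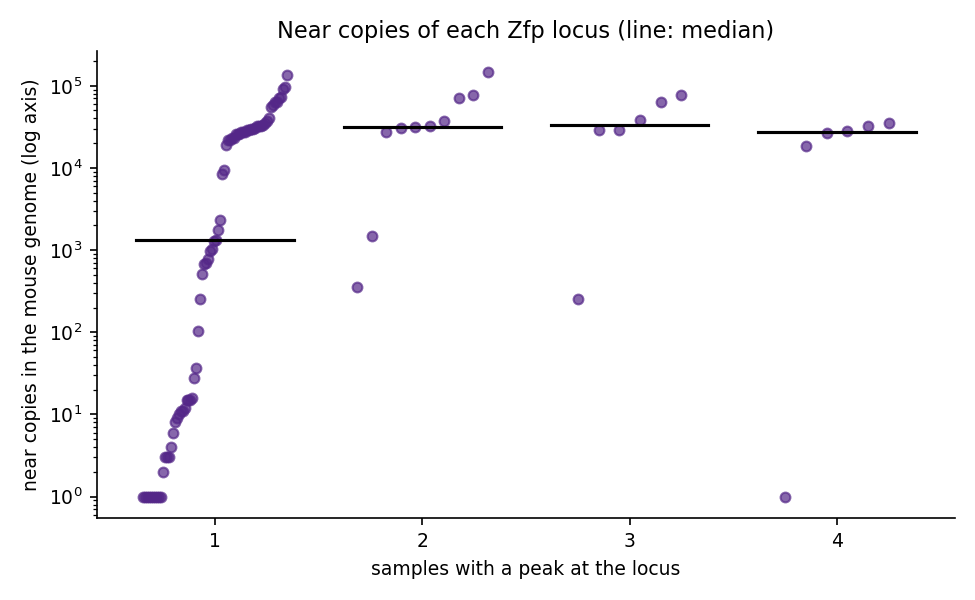
Each point is one of the 96 Zfp loci, placed by the number of samples that list it and by its near copies in the mouse genome on a log axis, with a line at the median. The median was 1316 for loci of 1 sample and 27355 for loci of all 4 samples, where Zfp184 is the point at 1 copy.

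Peaks near many different Zfp genes matched a single window of the genome. When 7000 bases around the Zfp534 locus (chr4:147097328-147104327) were compared with all 96 loci, 45 loci of 33 genes aligned at 81.2% to 100% identity over at least 80% of the peak. Counted among the 45 are the Zfp534 loci inside the window, at bases 2377 to 2478 and 3587 to 3795. These match themselves and give the 100%, and the highest identity of another locus was 99.5% (Zfp114). This window, out of those around the loci of 3 or 4 samples, was chosen because it matched the most Zfp loci. The matches were spread along it, from base 441 to base 6755. Zfp735 and Zfp330 fell at bases 1683 to 1776 and 1760 to 1907, Zfp606 and Zfp114 at 2687 to 2774 and 2725 to 2898, Zfp781 at 3875 to 3966, Zfp101 at 4879 to 5045 and the 4-sample Zfp758 peak at 5652 to 5820. From background knowledge of the sequence, with no repeat annotation used, those named here resemble the L1 (LINE-1) retrotransposon, a mobile element with a reverse transcriptase gene that is present in a great many partial copies, apart from the Zfp574 match at the end of the window, which is the B1-like sequence shown earlier. Of the 22 loci listed in 2 or more samples, 16 aligned, and of the 74 listed in 1 sample, 29 did. Loci of other genes were not split in this way.

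The share of peaks that matched this window was also counted for other genes. The window matched 54.9% of the 144 Zfp peaks and 54.6% of the 7711 other gene-annotated peaks. By sample it matched 57.1% (95% Wilson interval 43.3 to 70) of Zfp peaks in OLP A, 43.8% (28.2 to 60.7) in OLP B, 63.2% (47.3 to 76.6) in iOL A and 52% (33.5 to 70) in iOL B. The shares of other peaks were 52.5%, 51.6%, 54.8% and 62.8%. The Zfp shares include peaks of Zfp534 that lie inside the window and match themselves. These are 7 peaks at its locus of all 4 samples and 1 peak at another locus. The window was also chosen for its number of Zfp matches. Both can raise the Zfp shares, so these shares cannot show whether Zfp peaks matched more or less often than others.

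Sequence and reproducibility measures were compared between Zfp peaks and the other gene-annotated peaks within each sample, with exact two-sided sign flips over the 4 samples, which cannot reach p = 0.05. A peak counted as repeated if over 50% of its 32-base stretches had a second occurrence in the genome. This held for 85.7% of Zfp peaks and 86% of others in OLP A, 68.8% and 68.9% in OLP B, 89.5% and 87.1% in iOL A, and 84% and 81.2% in iOL B. The mean difference was 1.2 ± 1.63 percentage points (SD, n = 4, exact p = 0.5). Mean GC content within 100 bases of the summit was 40.4%, 36.8%, 40.4% and 41.2% at Zfp peaks in OLP A, OLP B, iOL A and iOL B, and 39.1%, 37.1%, 39.7% and 40.8% at others. It was higher at Zfp peaks in 3 of 4 samples, by 0.54 ± 0.68 points on average (SD, n = 4, exact p = 0.25).

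The core letters of Klf sites, CCACCC or CCGCCC on either strand, were rare in both sets. They occurred in 0 of 49 Zfp peaks in OLP A, 3 of 32 in OLP B, 4 of 38 in iOL A and 1 of 25 in iOL B, which is 0%, 9.38%, 10.5% and 4%. Others held them in 5.97%, 4.89%, 5.82% and 8.38% of peaks. Zfp peaks were higher in 2 of 4 samples, and the mean difference was -0.29 ± 5.68 points (SD, n = 4, exact p = 1). The 8 Zfp peaks with a match lay near Zfp51, Zfp72, Zfp97, Zfp160, Zfp418, Zfp600 and Zfp651, with 2 at Zfp600. None was at a place listed in all 4 samples within 100 bases of the summit. The match in the Zfp758 sequence shown earlier lies farther from the summit.

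A peak lay within 500 bp of any peak of the other replicate for 16.3% of Zfp peaks and 21% of others in OLP A, and for 25% and 34.2% in OLP B. In iOL A this was 36.8% against 25.7%, and in iOL B 52% against 45.2%. The mean difference was 1.01 ± 9.56 points (SD, n = 4, exact p = 0.875). Both samples of a stage count the same pairs of peaks, so these 4 values are not independent. The 95% Wilson interval of the Zfp share held the share of the others in each sample, and the difference between stages was not tested. The overlap was larger at higher MACS scores (-10 times log10 of the p-value) in both sets. Among Zfp peaks with a score under 50 it was 12.5% (7 of 56), from 50 to 100 it was 32.4% (23 of 71) and from 100 upward 76.5% (13 of 17). Among the others it was 12.3%, 32.9% and 74.3%.

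**Figure D5:**
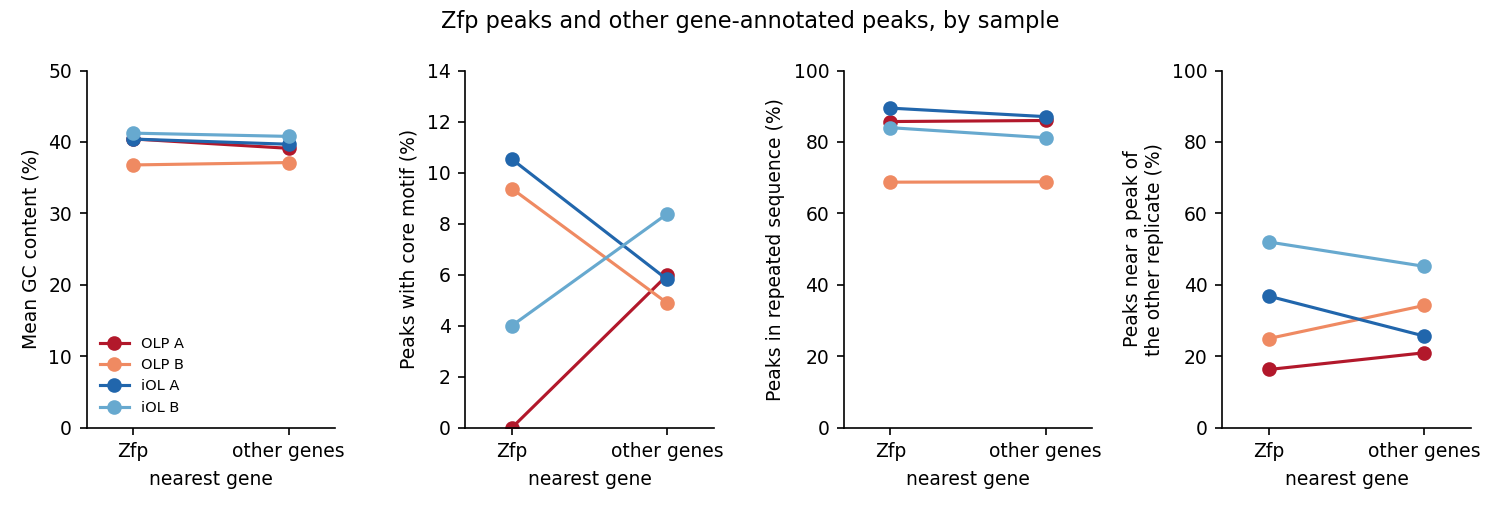
Each line joins the value of Zfp peaks with that of the other gene-annotated peaks of the same ChIP sample, for mean GC content, the share of peaks with the core motif, the share in repeated sequence and the share that overlapped the other replicate at 500 bp. The lines are nearly flat for GC content and repeated sequence, and cross for the other two measures.

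How reads that match several places were aligned or counted is not given in the sources used here, and its part in these peaks was not tested. For loci with near copies the nearest gene is uncertain as the gene of the bound copy.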

How the data were processed

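Klf6 ChIP-seq peak lists of 4 samples (OLP A and B, iOL A and B) were analysed. The submitters' processing notes name CASAVA 1.8, Bowtie2 and the build mm9. According to the study's methods, reads passed a quality filter, and the authors ran MACS on every ChIP sample with input as background before assigning each peak to its nearest TSS. The version of MACS is not given in the sources used here. The deposited lists hold the count of tags per peak, not normalized, and a score, -10 times log10 of the p-value, written by the authors' peak caller. The deposited fold enrichment is a linear ratio over background, and the deposited false discovery rate (FDR) is in percent.

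From these, all listed peaks with a gene were used, with no filter. Members, gene lists and the window shown were chosen with earlier results of these data known. Loci joined peaks at most 500 bp apart. Sequence and annotation came from NCBIM37 (the same build as mm9) and GENCODE vM1, and all 36280 peaks lay on its chromosomes. Near copies were found by BLAST 2.17.0 with a largest E value of 1e-10. Stages were compared by exact permutation and peak sets by exact sign flips over samples. The overlap, repeat and test functions were tested on simulated data. The genes named were those at one place in all 4 samples, the 5 replicated peaks of highest fold per stage, those replicated at 1 stage and unlisted at the other, those with 3 or more loci, those within 2 kb of the TSS in 2 samples, and the fixed lists. Genes outside it, such as Zfp352, Zfp746, Zfp946 and Zfp74, were chosen after their values were seen. Alternatives were narrower windows, limits on FDR, tags and score, other overlaps and each replicate left out. Depth is known only through tags in peaks, 105081 to 152149 per sample. The software was pysam 0.24.0, numba 0.67.0, pandas 2.3.3, matplotlib 3.10.9, numpy 2.4.6 and scipy 1.17.1 under Python 3.11.15.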

Additional observations from a re-analysis of the deposited data

How the results depend on the processing

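No comparison passed a threshold of 0.05 under any setting, and 2 against 2 samples could not. Only the direction and size of values can therefore change. With peaks scored at 50 or more, OLP minus iOL turned to -4 genes and -0.54 percentage points of share, and repeated sequence to -2.71 points. In the window of -15 to +5 kb, OLP minus iOL was 8 genes and 0.502 points of share. With the window of -15 to +5 kb, Zfp minus other peaks turned to -1.25 points for GC content, -0.551 for repeated sequence and -0.593 for replicate overlap, and the replicated genes fell to 4 in OLP and 4 in iOL, with 3 in all 4 samples. With at least 10 tags, repeated sequence turned to -0.627 points, iOL had 7 replicated genes, the difference in genes was 2.5, that in share 0.112 points, GC content 1.61, the core motif -2.56 and replicate overlap 6.4 points. With 1 shared base, replicate overlap turned to -0.0894 points.

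Leaving out each replicate in turn gave 1.5 to 10.5 for the difference in genes (1.5 without OLP A) and -0.149 to 0.154 points for the share, which was negative without OLP B or iOL A. The ranges were 0.279 to 0.827 points for GC content, -1.96 to 1.6 for the core motif (positive without OLP A or iOL B), 0.662 to 1.7 for repeated sequence and -2.37 to 4.43 for replicate overlap (negative without iOL A or iOL B). The cause of these turns was not tested. As a replicate block, pairing samples by letter gave 8 genes more in OLP for A and 4 for B, a mean of 6 (exact sign-flip p = 0.5, the smallest 2 pairs can give), and 0.00279 points for the share. Whether the letters mark a shared culture or day is not in the labels. The A minus B differences of the stages correlated at -0.019 over 5480 gene-annotated loci. That value cannot show a shift common to a whole sample, so a batch shared by letter was not tested.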
